A study of Mus musculus with 12 samples.

Results

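The 9 genes described here, Axin2, Lef1, Tcf7, Sp5, Sp8, Nkd1, Notum, Rnf43 and Znrf3, are target genes of canonical Wnt signalling whose products act back on the pathway. They were taken by symbol from the table of FPKM values (fragment counts scaled to transcript length and library size) and followed by Ensembl identifier into the table of read counts, where they are 9 of 55141 genes. All 9 had enough reads to be tested in every comparison.

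In canonical Wnt signalling, a Wnt ligand bound to a Frizzled receptor and an Lrp co-receptor inactivates the complex of Axin, Apc and Gsk3 that marks β-catenin for destruction. β-catenin then enters the nucleus and, with factors of the TCF/LEF family, switches on target genes. Several of those genes code for brakes on the same pathway, so that their RNA is widely read as a record of Wnt activity. In the embryo the pathway is active in the primitive streak and the tail bud, where axial progenitors are kept.

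Gastruloids are aggregates of mouse embryonic stem cells that break symmetry and elongate along an anterior-posterior axis in culture. Here they were grown from 300 cells of a 129/SVEV embryonic stem cell line per well. All 12 samples received a pulse of 3 µM CHIR99021, which inhibits Gsk3 and so activates β-catenin signalling from within the cell, for 24 h starting at 48 h after seeding. They were embedded in dextran hydrogel, a softer one at 1.0 mM or a stiffer one at 1.5 mM, either at 72 h, when the pulse ended, or at 96 h, and all were collected at 120 h, with about 30 gastruloids pooled per replicate. The 4 groups (72 h in 1.0 mM, 96 h in 1.0 mM, 72 h in 1.5 mM and 96 h in 1.5 mM) held 3 replicates each, and the question put to them is whether the time and the stiffness of confinement altered the level of these genes. Embedding at 72 h also meant a longer time in the gel before collection, and the time of embedding and the time spent in the gel cannot be told apart here.

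Poly-A RNA was sequenced to 23011791 to 27609422 counts per library. Levels are given in CPM, read counts scaled to the library total after TMM adjustment, and lengths enter only where FPKM is named. The gene CT010467.1 took 6.12% of all counts in replicate 1 of the 72 h group in 1.5 mM gels and 4.21% in replicate 2 of the 96 h group in 1.5 mM gels, against at most 2.67% for any gene in the other libraries. Calls of the 9 genes that change without these libraries are given both ways. Defining markers of tail bud, presomitic mesoderm, somite, neural tube, cardiac mesoderm, endothelium, endoderm and pluripotent cells were mostly present in every group. Neurog2, 1 of 6 neural tube markers, was at 0 in the 72 h group in 1.0 mM gels, and Neurog2, Wnt3a, Msgn1 and Olig2 had at most 3 counts per library in at least 2 groups.

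TCF/LEF factors bind letters of the form CTTTGNN in which NN is AA, AT, TA or TT, and the 250 bases before the RefSeq start sites (GRCm38.p6, the patched form of mm10) were searched for these words on both strands. Of all 32851 windows of this length, 14.8% held at least 1 match and 1.43% at least 2. RefSeq windows were at hand for 7 of the 9 genes, not for Notum or Znrf3, and 3 of their 14 windows held a match. By gene this was 3 of 7, beside 16.75% of all 27025 genes with a match in any window. The share by gene depends on the number of windows per gene. Below are the 3 windows with a match and, for contrast, that of Axin2, the usual reporter of Wnt activity, with none. The other windows of Lef1 and Sp8, among them those upstream of each gene, held no match either. Each runs from 5′ to 3′ on the strand of the gene and ends at the base before the start site, with matches in capitals. The Sp5 window (chr2:70474673-70474922, plus strand) lies upstream of the gene. The Sp8 window (chr12:118846983-118847232, plus strand) and the Lef1 window (chr3:131156044-131156293, plus strand) precede internal start sites, inside the annotated gene and outside every annotated exon. The Axin2 window (chr11:108920099-108920348, plus strand) lies upstream of the gene.
Sp5: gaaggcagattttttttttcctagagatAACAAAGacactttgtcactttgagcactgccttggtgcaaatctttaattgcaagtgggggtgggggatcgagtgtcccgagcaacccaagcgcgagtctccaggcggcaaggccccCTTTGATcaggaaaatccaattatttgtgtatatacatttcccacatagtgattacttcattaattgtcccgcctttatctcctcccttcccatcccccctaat
Sp8: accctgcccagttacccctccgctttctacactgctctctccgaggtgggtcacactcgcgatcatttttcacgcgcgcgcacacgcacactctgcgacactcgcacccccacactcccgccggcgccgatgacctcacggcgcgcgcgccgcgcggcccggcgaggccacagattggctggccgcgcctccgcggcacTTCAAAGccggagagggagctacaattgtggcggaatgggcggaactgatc
Lef1: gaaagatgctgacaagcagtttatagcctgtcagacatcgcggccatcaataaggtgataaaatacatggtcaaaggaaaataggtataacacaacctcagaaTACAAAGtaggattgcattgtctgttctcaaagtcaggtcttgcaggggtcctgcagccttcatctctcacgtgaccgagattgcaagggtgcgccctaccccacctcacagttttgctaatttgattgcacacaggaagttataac
Axin2: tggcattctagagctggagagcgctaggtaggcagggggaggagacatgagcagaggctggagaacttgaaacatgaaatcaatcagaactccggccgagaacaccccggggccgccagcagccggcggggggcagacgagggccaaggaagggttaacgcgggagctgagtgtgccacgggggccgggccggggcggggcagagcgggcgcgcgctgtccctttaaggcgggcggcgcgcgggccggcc
The pair of matches of Sp5 lay at bases -222 to -216 and -104 to -98 from the start site and did not overlap. The match of Sp8 lay at -51 to -45 and that of Lef1 at -147 to -141. A match describes the letters of the window and is not by itself a binding site, and windows without a match say nothing of sites elsewhere in the gene.

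The levels of the 9 genes spanned a wide range, and their order was nearly the same in every library. Lef1, a TCF/LEF factor that activates targets together with β-catenin, had the highest FPKM (mean 21.1, from 17.8 to 23.9), followed in each of the 12 libraries by its relative Tcf7 (mean 18.9, from 17.3 to 20.4). Nkd1, an antagonist that binds Dishevelled, and Axin2, a scaffold of the destruction complex, exchanged the third and the fourth rank between libraries, at mean FPKM of 12.0 and 11.4. The transcription factor Sp5 (mean 5.49) and the ubiquitin ligase Znrf3 (mean 4.22), which removes Frizzled receptors from the membrane, exchanged the fifth and the sixth. Sp8, the close relative of Sp5, ranked 7 in every library at a mean of 1.17. Notum, a secreted enzyme that removes the lipid from Wnt ligands (mean 0.353), and Rnf43, the partner of Znrf3 (mean 0.337), were lowest, with 12 to 45 and 23 to 69 counts per library, so their values carry the largest counting error.

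Some of these genes changed with embedding time, and the changes were small and of both signs. Across both gels, with gel concentration as a covariate, 3 of 9 genes passed an adjusted p of 0.05: Sp8 was higher after embedding at 72 h, and Notum and Lef1 were lower. That share, 33.3%, is near the 31.1% of all 16388 genes tested that passed (16.2% higher and 14.8% lower after 72 h), and it is therefore not a result about these genes as a group. None changed more than 2-fold as well, against 4.66% of all genes. The median log2 fold change (72 h over 96 h) of the 9 genes was -0.0041, beside -0.0072 over all genes tested.

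**Figure D1:**
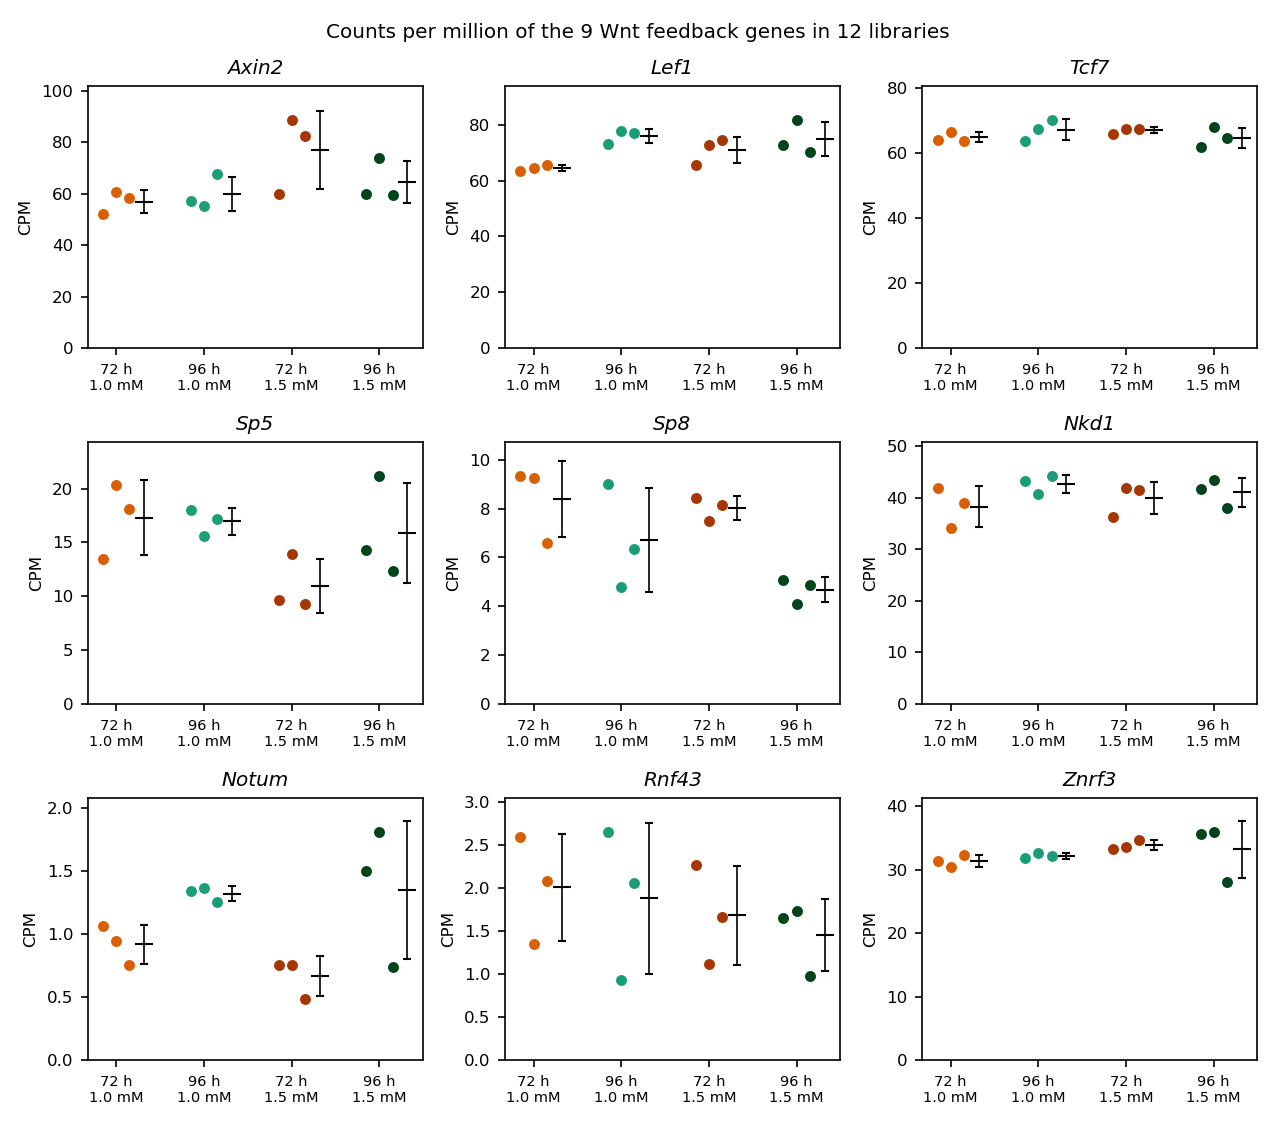
CPM (vertical axis, from 0) of the 9 genes in the 12 libraries, by group (embedding time and gel concentration on the horizontal axis). Points are libraries in the order of their replicate numbers, and the bar beside them is the mean ± SD (n = 3). Sp8 sits between 7.48 and 8.44 after 72 h and between 4.09 and 5.06 after 96 h in 1.5 mM gels, whereas Tcf7 stays between 61.7 and 70.0 throughout.

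Sp8, a zinc finger factor of the tail bud, limb and neural tube, showed the clearest change. In 1.5 mM gels its level was 8.44, 7.48 and 8.15 CPM in replicates 1 to 3 after embedding at 72 h, and 5.06, 4.09 and 4.87 CPM after 96 h. In 1.0 mM gels Sp8 reached 9.32, 9.23 and 6.58 CPM after 72 h, and 9.01, 4.78 and 6.36 CPM after 96 h. The groups were thus apart in 1.5 mM gels, and overlapped in 1.0 mM gels, where replicate 1 of the 96 h group reached the level of the 72 h group. The log2 fold change was 0.77 (SE 0.15, adjusted p = 0.00874) in 1.5 mM gels, a 1.71-fold higher level. It was 0.32 (SE 0.23, adjusted p = 0.442) in 1.0 mM gels, where it ran from 0.14 to 0.59 with 1 library left out, and 0.54 (SE 0.15, adjusted p = 0.0146) across both. The difference between the gels in this effect was 0.46 (95% interval -0.16 to 1.08) and did not pass the test (adjusted p = 0.953). In 1.5 mM gels Sp8 was the single gene of the 9 that passed, against 19.3% of all 15683 genes tested there (10.4% higher after 72 h).

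Notum, the feedback enzyme that inactivates secreted Wnts, went the other way at very low levels. In 1.0 mM gels it stood at 1.06, 0.94 and 0.75 CPM after embedding at 72 h, and at 1.34, 1.36 and 1.25 CPM after 96 h. In 1.5 mM gels it stood at 0.76, 0.76 and 0.49 CPM after 72 h, and at 1.50, 1.81 and 0.74 CPM after 96 h. The 96 h libraries were all above the 72 h libraries in 1.0 mM gels, and in 1.5 mM gels replicate 3 of the 96 h group fell among those of 72 h. The log2 fold change was -0.76 (SE 0.23, adjusted p = 0.0225) across both gels, which corresponds to a mean of 0.791 ± 0.195 CPM (SD, n = 6) after 72 h against 1.33 ± 0.350 CPM (SD, n = 6) after 96 h. Neither gel alone passed the unpaired test, with -0.52 (adjusted p = 0.299) in 1.0 mM and -1.02 (adjusted p = 0.0888) in 1.5 mM gels. In 1.5 mM gels it was -1.31 (adjusted p = 0.0478) without the low replicate 3 of the 96 h group. With the replicate number as a block in edgeR it was -0.98 (adjusted p = 0.0452) there. Within each replicate number, Notum was lower after 72 h in both gels. The call across both gels was lost without replicate 3 of the 72 h group in 1.5 mM gels (adjusted p = 0.0532) or without replicate 2 of the 96 h group in 1.5 mM gels (adjusted p = 0.0565), and with that second library left out only Sp8 passed.

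Lef1 changed least of the 3. It measured 63.7, 64.5 and 65.7 CPM after embedding at 72 h in 1.0 mM gels, against 73.0, 77.7 and 77.3 CPM after 96 h. In 1.5 mM gels it measured 65.8, 72.9 and 74.7 CPM after 72 h, against 72.8, 81.7 and 70.3 CPM after 96 h. The groups were apart in the softer gel and overlapped in the stiffer one. The log2 fold change was -0.15 (SE 0.05, adjusted p = 0.0418) across both gels, -0.23 (adjusted p = 0.0821) in 1.0 mM gels and -0.08 (adjusted p = 0.506) in 1.5 mM gels. The call across both gels was close to the threshold and was lost in 8 of 12 fits that left out 1 library, with adjusted p from 0.0618 to 0.0884. Those libraries were each of the 6 in 1.0 mM gels, replicate 1 of the 72 h group and replicate 2 of the 96 h group in 1.5 mM gels.

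In 1.0 mM gels, 0 of the 9 genes passed in edgeR's quasi-likelihood test, nor in DESeq2 or limma-voom. In edgeR 1 of the 9, Lef1, had an unadjusted p below 0.05, as did 3602 of all 15763 genes. Over all 15763 genes tested in that gel, 9.24% passed, and 4.3% passed and changed more than 2-fold. The corresponding share with a change of more than 2-fold in 1.5 mM gels was 3.18%, and included none of the 9.

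**Figure D2:**
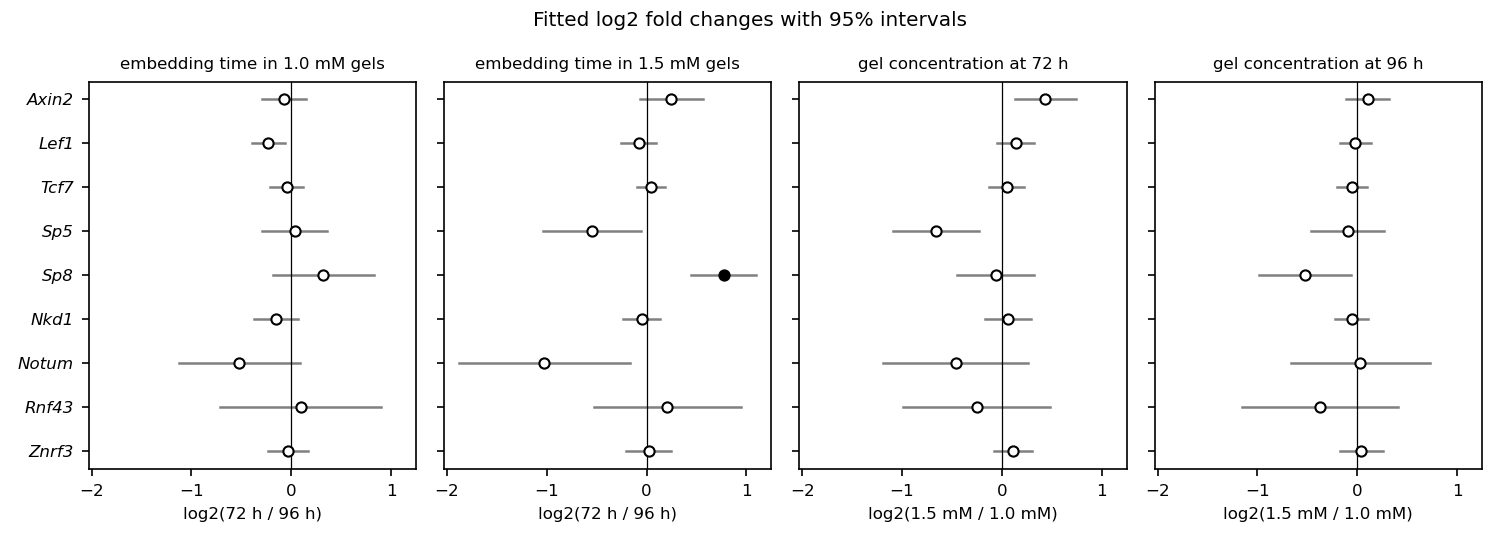
Fitted log2 fold changes (horizontal axis) of the 9 genes, with 95% intervals as lines, in 4 comparisons: 72 h over 96 h in each gel, and 1.5 mM over 1.0 mM at each embedding time. Filled points passed an adjusted p of 0.05, which Sp8 alone did, in 1.5 mM gels, and the widest intervals are those of Notum and Rnf43, the genes with the fewest counts.

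The composition of the samples, as far as marker genes show it, differed between the embedding times in the same libraries. Summed over 8 cardiac and anterior mesoderm markers, CPM ran from 405 to 818 after embedding at 72 h (6 libraries) and from 70.2 to 353 after embedding at 96 h (6 libraries). Summed over 8 somite markers it ran from 293 to 578 after 72 h and from 672 to 991 after 96 h, and over 6 pluripotency markers from 29.9 to 41.6 after 72 h and from 81.7 to 139.7 after 96 h. In the test across both gels, 7 of 8 cardiac markers rose, 7 of 8 somite markers fell and 5 of 6 pluripotency markers fell after 72 h. Of the 8 tail bud markers, 7 were tested, of which 1 (T) rose and 4 fell, while their summed CPM, carried mostly by T, ran from 227.5 to 342 after 72 h and from 124 to 208.5 after 96 h. Of the 6 neural tube markers, 5 were tested, of which 2 rose and 2 fell. Their summed CPM ran from 97.4 to 127.8 after 72 h and from 63.0 to 91.3 after 96 h. Sums of presomitic mesoderm, endothelium and endoderm markers overlapped between the embedding times. The part of these shifts in the values of Sp8, Notum and Lef1 was not tested, and in bulk RNA fewer cells of a type and less RNA per cell cannot be told apart.

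Gel concentration left the 9 genes without a call in edgeR with the filter on low counts. Without that filter edgeR called 2 of the 9, Axin2 and Sp5, at 72 h, beside 322 of all 28603 genes. It called the same 2 across both embedding times, beside 512 of all 31406 genes. The values that follow are with the filter. At 72 h, 0 of 9 passed, as did 0% of all 15563 genes tested (1074 genes had an unadjusted p below 0.05, DESeq2 called 16 genes and limma-voom 0). At 96 h, 0 of 9 passed, as did 0% of all 15861 genes tested (1578 genes had an unadjusted p below 0.05, DESeq2 called 97 genes and limma-voom 2). Neither DESeq2 nor limma-voom called any of the 9 at either time. With embedding time as a covariate over all libraries, 0 of 9 and 0.0305% of all genes passed. Some marker sums were also apart between the gels at 96 h, whereas those of somite, neural tube and endoderm markers overlapped. In 1.0 mM against 1.5 mM gels the sums ran from 70.2 to 192 against 194.5 to 353 CPM for cardiac markers, from 103 to 139.7 against 81.7 to 95.9 CPM for pluripotency markers and from 145 to 208.5 against 124 to 140.0 CPM for tail bud markers. They ran from 42.1 to 54.7 against 34.2 to 41.5 CPM for presomitic mesoderm and from 233 to 269 against 285 to 330 CPM for endothelium markers. Of the 8 cardiac markers 0 passed in edgeR there, with 7 at an unadjusted p below 0.05 and a median log2 fold change (1.5 mM over 1.0 mM) of 1.01, and the other tools were not tallied for markers. At 72 h the sums of endoderm markers were apart between the gels. They ran from 533 to 603 CPM in 1.0 mM against 373 to 508 CPM in 1.5 mM gels. Of the 6 endoderm markers 0 passed in edgeR at 72 h, with 3 at an unadjusted p below 0.05. Sums of the other marker lists overlapped between the gels at 72 h. The part of these differences in the gel comparisons at 72 h and 96 h and in the interaction was not tested.

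Axin2 and Sp5 stood closest to a call, with opposite signs, at 72 h, where each had an unadjusted p below 0.05, and Sp8 did at 96 h.

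Axin2 measured 52.0, 60.5 and 58.1 CPM in 1.0 mM gels and 59.8, 88.5 and 82.2 CPM in 1.5 mM gels after embedding at 72 h. After 96 h it measured 57.3, 55.1 and 67.4 CPM in 1.0 mM gels and 60.0, 73.9 and 59.4 CPM in 1.5 mM gels. The 2 highest values of all libraries were those of replicates 2 and 3 of the 72 h group in 1.5 mM gels, whereas replicate 1, the library with the large share of CT010467.1, lay within the range of the 1.0 mM gels. The log2 fold change (1.5 mM over 1.0 mM) at 72 h was 0.43 (SE 0.14, adjusted p = 0.698), and it was 0.58 (adjusted p = 0.0718) without that replicate. With all libraries and no filter on low counts, edgeR gave 0.44 (adjusted p = 0.00599). At 96 h it was 0.10 (SE 0.10, adjusted p = 0.791). For embedding time in 1.5 mM gels, the log2 fold change of Axin2 was 0.25 (adjusted p = 0.236) with all libraries and 0.40 (adjusted p = 0.0126) without that replicate, so this single library decided the call. Axin2 therefore had no call that held in every library subset.

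Sp5, a repressor in the Wnt programme and the gene with 2 matches in its window, had its 2 lowest values, 9.68 and 9.33 CPM, in replicates 1 and 3 of the 72 h group in 1.5 mM gels, with 13.9 CPM in replicate 2. The other groups measured 13.5, 20.3 and 18.1 CPM after 72 h in 1.0 mM gels, 18.1, 15.6 and 17.2 CPM after 96 h in 1.0 mM gels, and 14.3, 21.2 and 12.3 CPM after 96 h in 1.5 mM gels. The 72 h group in 1.5 mM gels was the lowest by its mean (10.97 ± 2.54 CPM, SD, n = 3), and the other 3 group means lay between 15.9 and 17.3 CPM with overlapping libraries. The log2 fold change (1.5 mM over 1.0 mM) at 72 h was -0.66 (SE 0.20, adjusted p = 0.698). Without a filter on low counts, edgeR called Sp5 in that comparison (-0.65, adjusted p = 0.00491). The log2 fold change of embedding time in 1.5 mM gels was -0.54 (SE 0.22, adjusted p = 0.109). The change with embedding time passed with DESeq2 (adjusted p = 0.0470) and without a filter on low counts (adjusted p = 0.0109). With the replicate number as a block in edgeR it passed too (-0.53, adjusted p = 0.00880). Within each replicate number in 1.5 mM gels, Sp5 was lower after 72 h. The change was -0.28 without replicate 2 of the 96 h group in 1.5 mM gels, the second library with a large share of CT010467.1. The interaction of time and gel was -0.57 (95% interval -1.18 to 0.05, adjusted p = 0.953), with the smallest unadjusted p of the 9 genes, and it was -0.32 without that library.

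At 96 h the level of Sp8 was 4.67 ± 0.512 CPM (SD, n = 3) in 1.5 mM gels and 6.72 ± 2.14 CPM (SD, n = 3) in 1.0 mM gels, with overlapping ranges. The log2 fold change was -0.52 (SE 0.21, adjusted p = 0.451), and ran from -0.71 to -0.25 with 1 library left out. At 72 h it was -0.06 (95% interval -0.44 to 0.32).

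The remaining genes kept close to a constant level, as far as their intervals allow. Tcf7 had the smallest spread of the 9, from 61.7 to 70.0 CPM over the 12 libraries, a 1.13-fold range, and the 95% interval of its log2 fold change reached from -0.10 to 0.10 both for embedding time and for gel concentration. Znrf3 ranged from 27.96 to 35.9 CPM, a 1.28-fold range, with the lowest value in replicate 3 of the 96 h group in 1.5 mM gels, and its intervals reached from -0.14 to 0.13 for time and from -0.06 to 0.21 for gel. Nkd1 ranged from 34.0 to 44.2 CPM, a 1.3-fold range, and its interval reached from -0.24 to 0.04 for time and from -0.13 to 0.14 for gel. Rnf43, in contrast, ranged from 0.92 to 2.65 CPM with all 4 groups overlapping, and its intervals, -0.40 to 0.70 for time and -0.87 to 0.24 for gel, leave room for changes of more than 1.6-fold in one direction.

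For the interaction of embedding time and gel, 0 of the 9 genes and 0% of all 16388 genes passed in edgeR, with 708 genes at an unadjusted p below 0.05, none of them among the 9. DESeq2 called 2 genes and limma-voom 0, none of the 9 in either.

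Ordered by their group means, the 9 genes did not share a pattern. Lef1 and Nkd1 were highest after 96 h in 1.0 mM gels and lowest after 72 h in 1.0 mM gels. Axin2 and Znrf3 were highest after 72 h in 1.5 mM gels and lowest after 72 h in 1.0 mM gels. Sp5, Sp8 and Rnf43 were highest after 72 h in 1.0 mM gels, but lowest after 72 h in 1.5 mM gels for Sp5 and after 96 h in 1.5 mM gels for Sp8 and Rnf43. Notum was highest after 96 h and lowest after 72 h in 1.5 mM gels, and the group means of Tcf7 lay between 64.6 and 67.0 CPM. For Lef1, neighbours in its order overlapped except between the 72 h groups of the 2 gels, and for Sp8 the lowest group was apart from both 72 h groups and overlapped with the 96 h group in 1.0 mM gels.

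Ratios between relatives within a library, given here as values without a test, brought out the pair of Lef1 and Tcf7. By FPKM, Lef1 exceeded Tcf7 1.00 to 1.06-fold in the 6 libraries embedded at 72 h, and 1.11 to 1.28-fold in the 6 embedded at 96 h, without overlap. By CPM the ratio was 0.971 to 1.11 after 72 h and 1.09 to 1.21 after 96 h, with a small overlap. The mean log2 difference (72 h minus 96 h) was -0.21 on the FPKM scale and -0.15 on the CPM scale. In 1.0 mM gels it was -0.19 by FPKM and -0.18 by CPM, and in 1.5 mM gels -0.24 and -0.12. By CPM the embedding times were apart within 1.0 mM gels and overlapped within 1.5 mM gels. Between the gels at 72 h (1.5 mM minus 1.0 mM) the difference was 0.01 by FPKM and 0.09 by CPM. The ratio of Sp5 to Sp8 by FPKM had its lowest group values, 2.45 to 4.003, after 72 h in 1.5 mM gels and its highest, 5.37 to 10.98, after 96 h in 1.5 mM gels, and the 2 genes had log2 fold changes of opposite sign in that gel. Rnf43 stood at 0.042 to 0.129 of Znrf3, and Axin2 at 0.467 to 0.674 of Axin1, with overlapping groups.

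**Figure D3:**
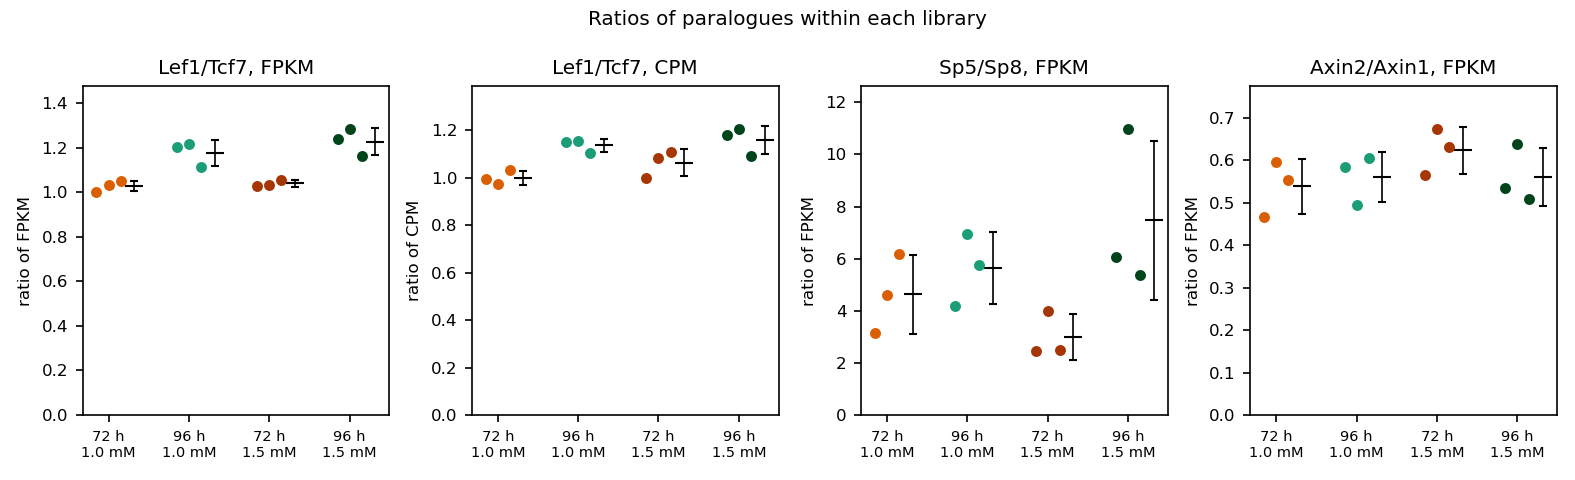
Ratios of related genes within each library (vertical axes, from 0, without unit) by group. Points are libraries and bars the mean ± SD (n = 3). The Lef1/Tcf7 ratio of FPKM is at most 1.06 in the libraries embedded at 72 h and at least 1.11 in those embedded at 96 h, and on the CPM scale the same groups overlap slightly.

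The relatives that are not feedback genes were expressed too, except Sp9. Tcf7l1, the family member known mainly as a repressor, was at 29.2 to 39.3 FPKM in the 12 libraries, above Lef1 and Tcf7 in each group mean, and Tcf7l2 was at 16.9 to 21.8 FPKM. Axin1, the constitutive Axin, was at 17.5 to 23.7 FPKM. None of these 3 passed for embedding time across both gels, with log2 fold changes between -0.04 and 0.02. Nkd2 was lower after embedding at 72 h in 1.0 mM gels (10.2 ± 2.22 against 17.1 ± 1.79 CPM, SD, n = 3 each; log2 fold change -0.73, SE 0.16, adjusted p = 0.0175), whereas in 1.5 mM gels its change was -0.14 (adjusted p = 0.719), and across both gels -0.44 (adjusted p = 0.0755). Sp9 had 0 to 3 counts per library and was not tested.

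The rest of the pathway gave the feedback genes their setting. Of 98 further genes in 5 lists, 85 were tested for embedding time across both gels, and 38 of them (44.7%) passed, 29 higher and 9 lower after 72 h, beside 31.1% of all genes tested (16.2% higher and 14.8% lower). The shifts in cardiac, somite and pluripotency markers given above lie between the same libraries, and their part in the values of these lists was not tested. Among the Wnt ligands 5 of 13 tested rose, 1 fell and 7 did not pass. Wnt2 rose from a median of 3.33 CPM (0.515 to 4.91) after 96 h to 12.9 CPM (5.96 to 22.9) after 72 h, which is 2.10 on the log2 scale (SE 0.40, adjusted p = 0.00123). Wnt5a, a ligand of non-canonical signalling and of axis extension, rose by 0.42 (SE 0.10, adjusted p = 0.00454).

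Secreted antagonists, which keep ligands from their receptors, moved in a single direction where they passed. Of 10 tested, 7 rose after embedding at 72 h, none fell and 3 did not pass, with a median log2 fold change of 0.79. Over all genes 16.2% were higher, and the cardiac and anterior mesoderm markers, with 7 of 8 higher, had a median of 1.70. Sfrp5, a Wnt-binding decoy, rose from a median of 3.90 CPM (1.88 to 5.32) to 16.5 CPM (9.71 to 26.9), which is 2.19 on the log2 scale (SE 0.30, adjusted p = 9.29e-05). Cer1, an inhibitor of Wnt, Nodal and BMP ligands, rose by 1.21 (SE 0.36, adjusted p = 0.0188), and Frzb by 0.84 (SE 0.10, adjusted p = 2.25e-05). Notum, the secreted antagonist among the 9 feedback genes, was lower after 72 h, opposite in sign to those 7. Its call rested on 12 to 45 counts per library and was lost in 2 of 12 fits that left out 1 library.

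Of 21 receptors and members of the R-spondin axis, 8 rose, 3 fell and 10 did not pass. Lgr5, the R-spondin receptor that holds Rnf43 and Znrf3 off the Frizzled receptors, rose by 1.13 on the log2 scale (SE 0.15, adjusted p = 6.99e-05), from a median of 7.21 CPM (4.71 to 7.63) after 96 h to 15.4 CPM (9.88 to 19.4) after 72 h. Fzd5 rose by 0.84 (SE 0.10, adjusted p = 3.17e-05) and Ror1 by 0.78 (SE 0.09, adjusted p = 1.65e-05). Among the intracellular transducers 20 of 24 did not pass, 3 rose and 1 fell, and the median was -0.0038. The 3 largest calls there were Dvl1 at -0.41 (adjusted p = 0.000832), Bcl9l at 0.30 (adjusted p = 0.00256) and Gsk3b at 0.24 (adjusted p = 0.0418).

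Other β-catenin target genes split in direction. Of 17 tested, 6 rose, 4 fell and 7 did not pass. T (Brachyury), the factor of the streak and tail bud, was at 180 to 290 CPM (median 227) after 72 h and at 69.2 to 137 CPM (median 87.1) after 96 h, or 1.3 higher on the log2 scale (SE 0.10, adjusted p = 6.44e-07). Myc, a growth regulator, was at 20.2 to 27.2 CPM (median 24.0) after 72 h and at 43.7 to 70.5 CPM (median 58.3) after 96 h, or -1.25 on the log2 scale (SE 0.10, adjusted p = 5.94e-07). Cyp26a1, which breaks down retinoic acid, rose by 0.72 (SE 0.09, adjusted p = 5.35e-05). Axin2 had a change of 0.09 (95% interval -0.12 to 0.30, adjusted p = 0.522) in the same fit. For gel concentration, 0 of the genes in the 5 lists passed in edgeR at either embedding time. At 72 h, 9 of 82 tested had an unadjusted p below 0.05, beside 1074 of all 15563 genes. At 96 h it was 16 of 84, beside 1578 of all 15861 genes. The other tools were tallied for the 9 feedback genes only.

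**Figure D4:**
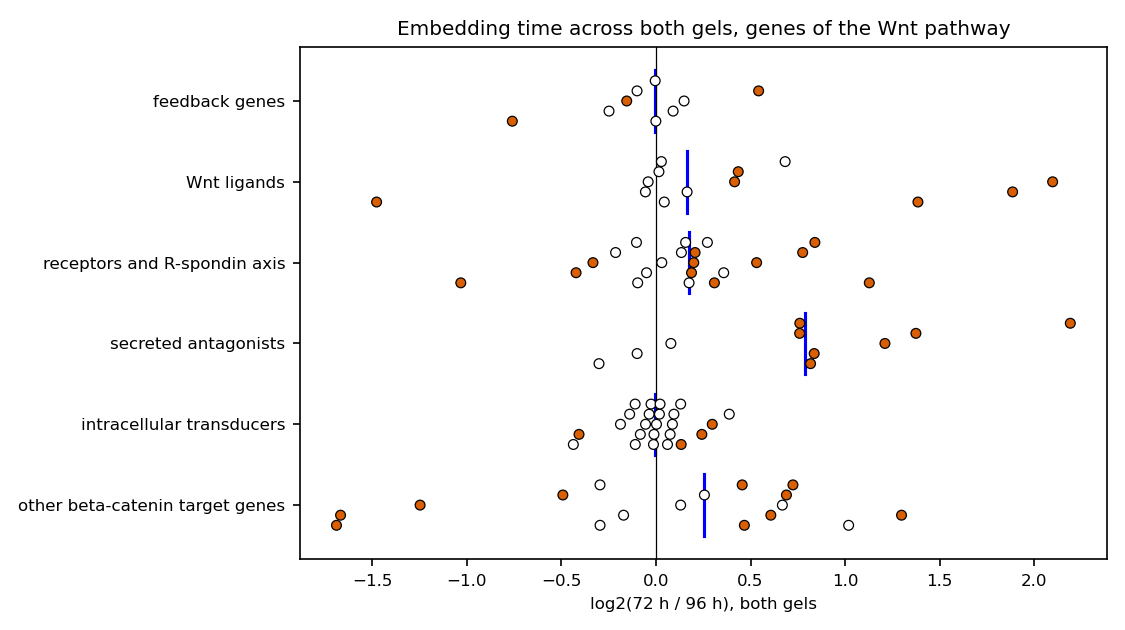
Log2 fold change of 72 h over 96 h across both gels (horizontal axis) for each gene tested, in rows by list, with orange points past an adjusted p of 0.05 and a vertical bar at the median of each list. The 9 feedback genes lie between -0.76 and 0.54 around a median near 0, and the secreted antagonists around a median of 0.79.

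Genes whose centred log2 CPM followed a member most closely were looked for among 11344 genes whose counts averaged 100 or more, by the root mean square difference over the 12 libraries. For Sp8, whose own SD was 0.40, the closest were Foxa2, a factor of axial mesoderm and 1 of the 6 endoderm markers used here, at 0.146 and Clcn3 at 0.159. For Axin2 (SD 0.23) they were Ctr9 at 0.090 and Pik3c3 at 0.0998, and for Sp5 (SD 0.36) Gpx2 at 0.214 and C920006O11Rik at 0.220. For Lef1 (SD 0.11) they were Cnot2 and Pank2, for Nkd1 (SD 0.11) Gtpbp3 and Slc38a10, for Znrf3 (SD 0.10) Trim8 and Pfkm, and for Tcf7 (SD 0.05) Dnajb6 and Vrk1, all within 0.07. For Notum (SD 0.49) they were Gm49774 at 0.255 and Rps16-ps2 at 0.272, and for Rnf43 (SD 0.47) Adamts12 at 0.278 and Gna14 at 0.293. Rps16-ps2 is a pseudogene that can share reads with its parent gene, so its level is uncertain. The 9 genes were not matched to each other. For Tcf7 the distances, 0.0372 and 0.0376, were not far below its own SD of 0.049. A small distance to a gene that hardly varied therefore says little of a shared pattern. The search gives the nearest of many genes, and its matches were not tested.

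In the deposited tables (mm10) the genes lie on 5 chromosomes. Axin2 (chr11:108920349-108950783), Tcf7 (chr11:52252371-52283331), Notum (chr11:120653788-120661175), Rnf43 (chr11:87663087-87735539) and Znrf3 (chr11:5276324-5444847) share chromosome 11, far apart. Lef1 lies at chr3:131110471-131224356, Sp5 at chr2:70474923-70477729, Sp8 at chr12:118846329-118852576 and Nkd1 at chr8:88521354-88594884. Antisense genes overlap Tcf7 (A630014C17Rik, 27 to 56 counts per library), Lef1 (Gm43352, 12 to 37), Axin2 (Gm11670, 0 to 3) and Notum (Notumos, 0 to 3, and Myadml2os, 0 to 1). How strand was used in the counting is not given in the sources used here, so reads of such partners are not certain to be separate. Genes on the same strand, which strand cannot separate, overlap Tcf7 (Gm26551, not analysed here), Lef1 (Gm42449, 0 to 4 counts), Nkd1 (Gm45496, 0 to 1) and Rnf43 (1110028F11Rik, 0 to 1). Tcf7 itself had 1482 to 1903 counts per library and Lef1 1481 to 2101.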

How the data were processed

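Poly-A RNA of 12 samples, 3 independent replicates in each of 4 groups, was analysed. The authors trimmed reads with cutadapt 4.4, aligned them to mm10 with STAR 2.7.10b and deposited raw read counts per gene of a customized Ensembl annotation; the strand setting of the counting is not given in the sources used here. The authors computed the deposited FPKM values with Cufflinks 2.2.1.3. Their table of DESeq2 fold changes and adjusted p-values was not used, and other samples of the study were not analysed here.

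From the counts, 36 mitochondrial genes were left out, low counts were removed (filterByExpr, minimum count 10, minimum total 15), TMM factors were computed, and genes were tested with glmQLFit and glmQLFTest of edgeR 4.0.16 in R 4.3.3, with Benjamini-Hochberg adjustment over all genes tested and a threshold of 0.05. Pairwise fits used the 6 libraries of 2 groups. The fits across gels or times and of the interaction used all 12. None of these main fits was paired by replicate number. Intervals are at 95% and, like the SE, come from the quasi-likelihood F statistic. The log2 CPM used a prior count of 2. Total counts are given with the samples, and at these depths the spread between replicates limits the precision. For Notum and Rnf43 the low counts limit it as well. Scripts were tested on simulated data. Promoters are RefSeq sequences of GRCm38.p6.

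Alternatives were DESeq2 1.42.0, limma-voom (limma 3.58.1), RLE factors, no filter, a filter of 1 CPM in 3 libraries, the mitochondrial genes put back, a block for the replicate number, all 12 libraries in a single fit, each library left out in turn, and a log2 fold change above 1.

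Named are the 9 genes, up to 3 genes of each pathway list past the threshold for embedding time across both gels with a mean of at least 100 counts, the 2 genes with the closest profile to each, and 5 relatives, which the lists also hold. The genes and lists were chosen with earlier results of these data known. The comparisons share libraries and are not independent.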

Additional observations from a re-analysis of the deposited data

How the results depend on the processing

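Sp8 kept its direction and its call for embedding time in 1.5 mM gels and across both gels under every alternative except the added requirement of a log2 fold change above 1, under which 0 genes passed in 1.5 mM gels and 0 across both gels. In 1.5 mM gels the number of genes past the threshold was 1 as reported, 2 with DESeq2, 2 without a filter on low counts (Sp5 joined in both) and 1 to 2 with 1 library left out; across both gels it was 3 as reported and 1 to 3 with 1 library left out. Without a filter, 2 genes (Axin2 and Sp5) passed for gel concentration at 72 h and 2 across both embedding times, and Lef1 lost its call for time (adjusted p = 0.0978); the cause was not tested. Over all genes, the count for gel concentration at 72 h was 0 as reported, 16 with DESeq2, 322 without a filter and 43 with a replicate block; at 96 h it was 0, 97, 333 and 289, and 0 to 26 with 1 library left out; across both times it was 5, 204, 512 and 81, and 2 to 80. For the interaction it was 0, 2, 238 and 5. For embedding time it was 1457 in 1.0 mM gels, 2283 without a filter and 731 to 1680 with 1 library left out, and in 1.5 mM gels 3033 and 1181 to 4102 with 1 library left out. With the replicate number as a block, 3 genes passed in 1.5 mM gels, Sp8, Sp5 (adjusted p = 0.00880) and Notum (adjusted p = 0.0452); the block changed no other count of the 9 genes. Libraries of the same number are not stated to share a batch, and the correlation of their deviations from the group means ran from 0.0365 to 0.313 (median 0.156, 13 of 18 pairs over 0.1; median -0.0765 between different numbers). Every same-numbered pair was thus positive. Deviations within a group cancel, so the negative median largely follows from the positive one and adds no separate evidence. Each of the 12 libraries had its highest mean correlation with its own number, a hint from the data and not from the design. The main fits and the overlaps of groups took no account of the numbers, because not every pair was over 0.1. That rule was a choice, and in 1.5 mM gels the blocked fit called 3885 genes against 3033.

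The following values changed sign. For Tcf7 across both gels the log2 fold change was 0.0026 with DESeq2, 4e-04 with limma-voom, 0.0018 with RLE factors and 0.0022 without a filter, and for Znrf3 8e-04 with limma-voom. For Nkd1 between gels across both times it was -6e-04 with DESeq2, -8e-04 with RLE factors, -0.0026 with 1 CPM in 3 libraries and -0.0016 with mitochondrial genes kept. For Notum between gels at 96 h it was -0.0614 with limma-voom and -0.0152 with the replicate block. With 1 library left out, the log2 fold change of embedding time in 1.0 mM gels ran from -0.124 to 0.0206 for Axin2, from -0.0971 to 0.185 for Sp5 and from -0.22 to 0.42 for Rnf43. In 1.5 mM gels it ran from -0.0995 to 0.0143 for Nkd1, from -0.0635 to 0.434 for Rnf43 and from -0.0845 to 0.0847 for Znrf3, and across both gels from -0.0204 to 0.0192 for Tcf7 and from -0.0561 to 0.0166 for Znrf3. That of gel concentration at 72 h ran from -0.21 to 0.0211 for Sp8 and from -0.0204 to 0.129 for Nkd1. At 96 h it ran from -0.0071 to 0.195 for Axin2, from -0.0874 to 0.0236 for Lef1, from -0.351 to 0.0616 for Sp5, from -0.23 to 0.32 for Notum and from -0.0175 to 0.152 for Znrf3, and across both times from -0.043 to 0.0326 for Nkd1 and from -0.0171 to 0.0184 for Tcf7. The interaction ran from -0.20 to 0.44 for Rnf43 and from -0.0415 to 0.121 for Znrf3. Counts of 12 to 69 per library limit Notum and Rnf43.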
